A study of Mus musculus with 8 samples.

Results

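The genes described here build and run motile cilia. They were measured in lung tissue of newborn mice on 8 Agilent microarrays, each hybridised with the dye Cy3. The set holds 36 listed genes and was taken by name: regulators of the ciliated cell, dynein arm, radial spoke, central pair and tektin genes, and other genes typical of ciliated cells. All 36 were found among 17234 genes tested. The platform's annotation gave 29 of them under the listed symbol. The other 7 (Mcidas, Dnah5, Dnah6, Dnah9, Dnah11, Drc1 and Pifo) were found by accession under an older symbol. Every member passed the filter on dim features, which took the mean over all 8 arrays. The array feature with the highest mean stood for each gene.

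The labels give 4 arrays from pups heterozygous for Fgf10 (Fgf10 +/-, titled TG) and 4 from wild-type pups (titled WT). Both groups are labelled C57Bl/6J and both had breathed 85% oxygen between postnatal days 0 and 3, so there was no group in room air. The kind of Fgf10 allele, and whether the samples of a group came from separate litters, are not given in the sources used here. Lung tissue mixes many cell types, so a change in the number of ciliated cells and a change in RNA per ciliated cell cannot be told apart in these values.

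Motile cilia are hair-like organelles that cover the ciliated cells of the conducting airways and sweep mucus out of the lung. Their core, the axoneme, is a ring of microtubule doublets around a central pair, and dynein motors on the doublets make them slide so that the cilium bends. Mcidas acts early in the multiciliated cell program, and Ccno serves the mass production of centrioles that become basal bodies. Foxj1 with the RFX factors switches on the axoneme genes.

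The RFX factors bind a paired motif, the X-box, in promoters of cilia genes, and this motif is shown because it is a property the choice of members did not use. An X-box was searched on both strands in windows from 250 bases before to 50 bases after each gene's start (RefSeq, GRCm38.p6). Of 31 members with a window, 8 held an X-box (25.8%), against 1.75% of 27025 genes with a window and 1.53% of 32851 windows. Members without a window were Foxj1, Lrrc6, Rsph1, Rsph4a and Tppp3. Of 54 other genes of motile cilia structure 13 held an X-box (24.1%), and of 28 transport genes shared by all cilia 3 did (10.7%). The forkhead motif GTAAACA, of the kind that FOXJ1 binds, was present in 2 members (6.45%, Mlf1 and Sntn) and in 4.05% of all genes with a window. The following stretches lie upstream of the start of 7 members, each written 5′ to 3′ on the gene's strand with the X-box in capitals. The eighth X-box, in Spef2, lay after the gene's start.
Dnaic1 (plus strand, chr4:41569753-41569793): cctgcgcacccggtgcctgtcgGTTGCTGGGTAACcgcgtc
Dnaic2 (plus strand, chr11:114727364-114727418): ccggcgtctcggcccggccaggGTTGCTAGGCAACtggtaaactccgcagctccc
Hydin (plus strand, chr8:110266934-110266976): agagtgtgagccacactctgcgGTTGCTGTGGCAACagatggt
Dynlrb2 (plus strand, chr8:116504942-116504998): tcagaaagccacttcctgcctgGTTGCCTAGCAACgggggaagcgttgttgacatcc
Lrrc23 (minus strand, chr6:124779857-124779913): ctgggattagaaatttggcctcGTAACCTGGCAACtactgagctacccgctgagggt
Tekt2 (minus strand, chr4:126325689-126325739): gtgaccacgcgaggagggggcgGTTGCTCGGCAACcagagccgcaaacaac
Ccno (plus strand, chr13:112987561-112987618): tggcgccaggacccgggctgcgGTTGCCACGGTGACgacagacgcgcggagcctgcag
In Dnaic1, Hydin, Tekt2, Dnaic2 and Dynlrb2 the motif ended between 6 and 38 bases before the start, or 58 bases before it from another annotated start of Tekt2. In Lrrc23 it ended 151 and in Ccno 205 bases before it. These matches are a description of letters, not of factor binding.

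Some facts of the whole series bear on what follows. Fgf10 read 7.81, 7.99, 8.10 and 8.28 in arrays 1 to 4 labelled Fgf10+/- and 7.53, 8.16, 7.91 and 7.64 in wild-type arrays 1 to 4 (log2 intensity, two-sided exact permutation p = 0.2). These values are from the brightest of 10 Fgf10 features, all of 1 accession. All 10 had a positive difference, from 0.06 to 0.44, and their mean differed by 0.23 (exact permutation p = 0.229). Fgf10 was therefore not lower in the arrays labelled Fgf10+/-, and the part of the gene these features read is not given, so directions below rest on the labels alone. Lung identity was plain: the surfactant gene Sftpc and the club cell gene Scgb1a1 lay at the top of the scale on all 8 arrays. Wild-type array 4 stood apart from the others. Its median correlation with the other arrays was 0.977, against 0.979 to 0.984 for the rest. The atrial hormone gene Nppa read 11.25 there and between 4.55 and 6.25 elsewhere, and 6 of 7 mesothelial markers were highest there. Of 8 heart genes only 3 (Nppa, Tnnt2 and Myh6) were highest there, and the atrial genes Myl4 and Myl7 were highest in wild-type array 3. Wild-type array 4 also had the lowest value of the 8 arrays for 19.3% of all genes and the highest for 16.9%.

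No motile cilia gene passed the test, although nearly all had a small positive difference. The mean of the arrays labelled Fgf10+/- was the higher one in 34 of 36 members, against 51.3% of all genes. The median log2 difference was 0.32, against 0.01 over all genes. Members moved together from array to array, as described below, so they are not replicates and such counts are only a description. limma called 0 of 36 members at an adjusted p below 0.05, while 0.795% of all genes were called (137 genes, 0.226% higher and 0.569% lower). It also called 0 members at an adjusted p below 0.1, against 1.61% of all genes. The smallest adjusted p of a member was 0.177, for Dnah6. At an unadjusted p below 0.05 stood 12 members, all higher (33.3%), against 11.2% of all genes at that level (5.39% higher and 5.79% lower). In 3 members (8.33%), Ccno, Dnah5 and Rsph4a, the 4 arrays labelled Fgf10+/- lay wholly above the 4 wild-type arrays, as they did in 3.13% of all genes. Among the lists described below, this share was 9.62% for other motile cilia structure and 9.68% for transport shared by all cilia. It was 10% for general epithelial genes, 60% for alveolar type 2 cell genes and 0% for the other lists. No member was apart in the other direction, against 3.51% of all genes (6.64% in either direction). The exact permutation p was 0.0286 in Ccno, Dnah5 and Rsph4a, a value that lying apart fixes. In the other members at an unadjusted limma p below 0.05 it ran from 0.0571 (Dnah6 and Tekt2) to 0.286 (Lrrc23). The differences of members ranged from -0.40 (Rfx2) to 0.86 (Tekt2). The count of 12 depended on the arrays used. Leaving out wild-type array 4 gave 4, leaving out wild-type array 2 gave 5, and leaving out array 2 labelled Fgf10+/- gave 3. It was 17 without wild-type array 3 and 13 without wild-type array 1. Without arrays 1, 3 and 4 labelled Fgf10+/- in turn it was 8, 12 and 10. The median of 0.32 was 0.20 without wild-type array 4 and 0.42 without wild-type array 3.

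**Figure D1:**
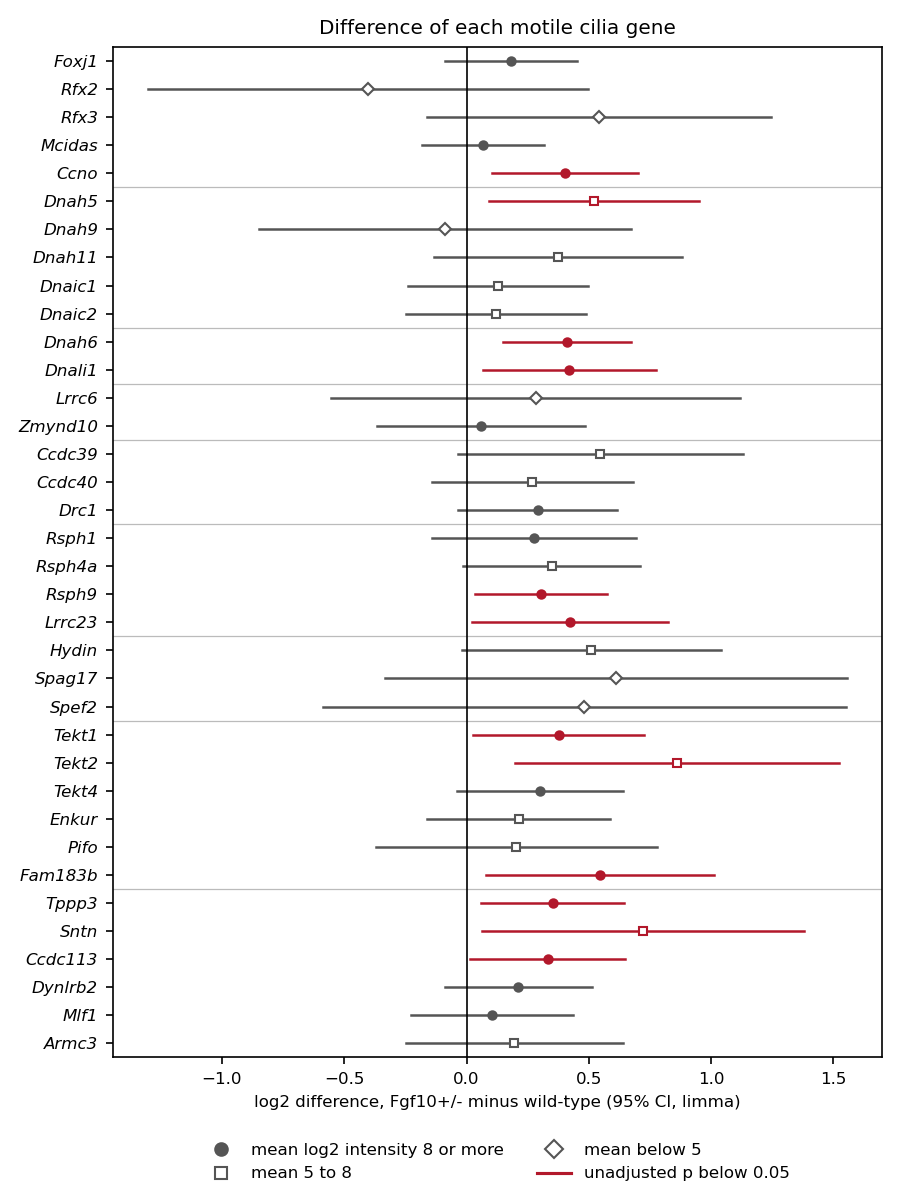
Log2 difference (arrays labelled Fgf10+/- minus wild-type, x axis) of each of the 36 motile cilia genes (y axis, grouped by role), with the 95% confidence interval from limma over 4 arrays per group. Points lie right of 0 for 34 genes, red marks the 12 with an unadjusted p below 0.05, and the 6 open diamonds (mean log2 intensity below 5) have the widest intervals.

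The precision depended on how bright a feature was. The 17 members with a mean log2 intensity of at least 8 had standard errors (SE) of 0.12 to 0.22 and all 17 had a positive difference, with a median of 0.30. The 13 members between 5 and 8 had SE of 0.17 to 0.31, all positive, with a median of 0.35. The 6 members below 5 (Rfx2, Rfx3, Dnah9, Lrrc6, Spag17 and Spef2) had SE of 0.33 to 0.50, and 4 of the 6 were positive. The table holds no background level, so whether the values of these 6 lay above background is unknown. The intervals of these 6 genes all included 0, and differences of this size were not detectable in them with 4 arrays per group.

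No regulator was called. Ccno had the smallest unadjusted limma p among the regulators, while the differences of Foxj1 and Mcidas were within the spread between arrays. Foxj1 read 9.07, 9.30, 8.82 and 9.02 in arrays 1 to 4 labelled Fgf10+/- and 8.97, 8.68, 9.01 and 8.82 in wild-type arrays 1 to 4. The groups overlapped, array 2 labelled Fgf10+/- was the highest, and the difference was 0.18 (SE 0.13, 95% CI -0.09 to 0.45, limma adjusted p = 0.644). Ccno, which encodes cyclin O, read 9.58, 9.69, 9.05 and 9.17 against 8.98, 8.96, 9.04 and 8.91, in the same order of arrays, which holds below too. Its groups did not overlap, but arrays 3 and 4 labelled Fgf10+/- lay close to the wild-type values. The difference was 0.40 (SE 0.14, limma adjusted p = 0.261, exact permutation p = 0.0286, the smallest that 4 against 4 arrays can give).

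Mcidas read 11.57, 11.28, 11.58 and 11.58 against 11.20, 11.26, 11.71 and 11.57, a difference of 0.07 (SE 0.12, limma adjusted p = 0.884). Its low arrays were array 2 labelled Fgf10+/- and wild-type arrays 1 and 2, and the highest was wild-type array 3. Without wild-type array 1 the difference was -0.0094. Array 2 labelled Fgf10+/- was thus low for Mcidas while it was the highest of all arrays for 22 other members. Mcidas and Ccno are immediate neighbours on chromosome 13, which also carries Fgf10, though not next to them. Whether position bears on these values was not tested. Both RFX genes were dim. Rfx2 read 3.36, 4.84, 4.84 and 4.09 against 4.66, 4.64, 5.58 and 3.87, a difference of -0.40 (SE 0.42, limma adjusted p = 0.789), and its highest and lowest arrays were 1 of each group. Rfx3 read 4.38, 4.72, 4.06 and 4.52 against 3.68, 3.38, 3.96 and 4.50, a difference of 0.54 (SE 0.33, limma adjusted p = 0.580). Wild-type array 4 lay inside the range of the other group for Rfx3, and the other features of Rfx3 differed by -0.08 and 0.12.

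The dynein arms are the motors of the axoneme, the outer arms driving beat frequency and the inner arms shaping the bend. Of 7 arm genes 6 had a positive difference and 3 had an unadjusted p below 0.05. Dnah5, a heavy chain of the outer arm whose loss causes primary ciliary dyskinesia, read 7.77, 7.70, 7.82 and 7.65 against 7.62, 6.66, 7.53 and 7.05. Its groups did not overlap, the gap being narrow at wild-type array 1, and the difference was 0.52 (SE 0.20, limma adjusted p = 0.329, exact permutation p = 0.0286). The arrays labelled Fgf10+/- agreed closely for this gene (SD 0.07, n = 4), while wild-type arrays spread widely (SD 0.44, n = 4). Dnah11, another outer arm heavy chain, read 6.91, 7.57, 6.80 and 7.33 against 6.90, 6.69, 7.25 and 6.27. Its groups overlapped, with a difference of 0.37 (SE 0.24, limma adjusted p = 0.596). Dnah9, the heavy chain of outer arms in the distal cilium, read 2.75, 3.54, 3.21 and 3.80 against 3.25, 3.62, 3.68 and 3.11, near the filter level of 2.76. It differed by -0.09 (SE 0.35, limma adjusted p = 0.951), or by 0.10 without array 1 labelled Fgf10+/-. The outer arm intermediate chains Dnaic1 and Dnaic2 had differences of 0.13 and 0.12 (SE 0.17 each).

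In the inner arm, the heavy chain gene Dnah6 had the smallest p of all members. It read 10.01, 9.98, 9.58 and 9.77 against 9.42, 9.51, 9.59 and 9.19, a difference of 0.41 (SE 0.12, 95% CI 0.15 to 0.67, limma adjusted p = 0.177). Only array 3 labelled Fgf10+/- kept the groups from lying apart, being just below wild-type array 3. The light intermediate chain gene Dnali1 read 9.02, 9.16, 8.92 and 8.82 against 8.65, 8.47, 9.001 and 8.12, a difference of 0.42 (SE 0.16, limma adjusted p = 0.336). Wild-type array 3 lay within the range of the other group. Zmynd10 and Lrrc6 serve the assembly of dynein arms in the cytoplasm. Zmynd10 read 8.41, 8.93, 7.95 and 8.23 against 8.49, 8.28, 8.57 and 7.95, and differed by 0.06 (SE 0.20, limma adjusted p = 0.942). Lrrc6 read 3.86, 5.15, 5.16 and 4.70 against 4.72, 4.77, 4.79 and 3.46, a difference of 0.28 (SE 0.39, limma adjusted p = 0.847). In both genes the groups overlapped, and the lowest array was wild-type array 4. Without that array alone the direction turned in both, to -0.07 in Zmynd10 and -0.04 in Lrrc6.

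Ccdc39 and Ccdc40 form the ruler that sets the repeat along the doublets, and Drc1 belongs to the nexin link between them. Ccdc39 read 5.68, 6.34, 5.96 and 6.18 against 5.45, 5.75, 5.93 and 4.84, a difference of 0.55 (SE 0.27, limma adjusted p = 0.486). Drc1 read 10.24, 10.65, 10.01 and 10.17 against 10.26, 9.90, 10.12 and 9.62, a difference of 0.29 (SE 0.15, limma adjusted p = 0.515). Both were highest in array 2 labelled Fgf10+/- and lowest in wild-type array 4, and their groups overlapped. Ccdc40 differed by 0.27 (SE 0.19), but its other, dimmer feature differed by -0.29 and the mean of its features by -0.01.

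Radial spokes reach from the doublets to the central pair. All 4 spoke genes had a positive difference, between 0.28 and 0.42. Rsph9 read 10.73, 11.06, 10.58 and 10.57 against 10.48, 10.35, 10.68 and 10.21, a difference of 0.30 (SE 0.13, limma adjusted p = 0.371). Lrrc23, a spoke protein in cilia and sperm tails, read 10.81, 11.12, 10.14 and 10.15 against 10.19, 10.20, 10.21 and 9.93. Only arrays 1 and 2 labelled Fgf10+/- stood above the wild-type arrays, and arrays 3 and 4 lay below wild-type arrays 1 to 3. The difference was 0.42 (SE 0.19, limma adjusted p = 0.413). The spoke head gene Rsph4a, which was apart between the groups, differed by 0.35 (SE 0.17, limma adjusted p = 0.473), although its dimmer feature had a difference of -0.14. Rsph1 differed by 0.28 (SE 0.19).

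The 3 central pair genes differed by 0.48 to 0.61, and none had an unadjusted p below 0.05. Hydin, a large protein of a central pair projection, read 7.35, 7.01, 7.22 and 6.91 against 6.74, 7.05, 6.83 and 5.82, a difference of 0.51 (SE 0.25, limma adjusted p = 0.469). Spag17, another projection protein, read 4.60, 5.07, 4.70 and 5.30 against 5.17, 4.37, 4.84 and 2.84, a difference of 0.61 (SE 0.44, limma adjusted p = 0.657). Other, dimmer features differed by -0.61 in Hydin and by -0.24 in Spag17, and the mean of the Hydin features differed by -0.05. Wild-type array 4 was far the lowest for both genes and for Spef2, where it read 2.22. Without that array the differences were 0.25 for Hydin, 0.12 for Spag17 and 0.03 for Spef2.

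Tektins are filament proteins of the doublet wall, and Enkur, Pifo and Fam183b are grouped with them here as genes of the doublet lumen or the ciliary base. All 6 of these genes had a positive difference. Tekt2 had the largest difference of any member. It read 5.89, 7.34, 6.10 and 6.27 against 5.29, 5.24, 5.97 and 5.65, a difference of 0.86 or 1.82-fold (SE 0.31, 95% CI 0.20 to 1.52, limma adjusted p = 0.285). Array 2 labelled Fgf10+/- lay far above the rest, and the groups overlapped at array 1 labelled Fgf10+/- and wild-type array 3. Without array 2 labelled Fgf10+/- the difference of Tekt2 was 0.55. Fam183b read 11.57, 11.31, 10.79 and 11.42 against 11.38, 10.36, 10.90 and 10.27, a difference of 0.55 (SE 0.22, limma adjusted p = 0.348). Wild-type arrays 1 and 3 lay within the range of the other group for this gene. Tekt1 differed by 0.38 (SE 0.16), and its other feature by 0.35. Tekt4 differed by 0.30 (SE 0.16), Enkur by 0.21 (SE 0.17) and Pifo by 0.20 (SE 0.27), with -0.13 at the other feature of Pifo.

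The remaining 6 genes are typical of ciliated cells, and all had a positive difference. Tppp3, which encodes a protein that bundles microtubules, read 11.31, 11.62, 11.62 and 11.24 against 11.28, 10.88, 11.40 and 10.81, a difference of 0.35 (SE 0.14, limma adjusted p = 0.334). Sntn, which encodes sentan of the ciliary tip, read 6.15, 6.80, 5.99 and 6.53 against 5.69, 6.05, 6.10 and 4.74, a difference of 0.72 (SE 0.31, limma adjusted p = 0.387). The groups overlapped in both genes, and wild-type array 4 was the lowest in both. The difference of Sntn was 0.42 without wild-type array 4. Ccdc113, a ciliary coiled-coil gene, differed by 0.33 (SE 0.15), the dynein light chain gene Dynlrb2 by 0.21 (SE 0.14), Armc3 by 0.20 (SE 0.21) and Mlf1 by 0.10 (SE 0.15).

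Motile cilia genes moved together from array to array, within groups as well as between them. Wild-type array 4 had the lowest of the 8 values for 25 of 36 members (69.4%), against 19.3% of all genes. Array 2 labelled Fgf10+/- had the highest value for 22 members (61.1%), against 12.2% of all genes. In 17 members both held. The mean over the members of each value minus its gene's mean was 0.10, 0.46, -0.0041 and 0.08 in arrays 1 to 4 labelled Fgf10+/- and -0.03, -0.22, 0.12 and -0.52 in wild-type arrays 1 to 4. The groups overlapped in this mean, since wild-type array 3 lay above arrays 1, 3 and 4 labelled Fgf10+/-. Wild-type array 3 was the highest of the 8 arrays for 5 members and wild-type array 2 the lowest for 7. Rfx3 went against this order, with wild-type array 4 the highest wild-type array, and in Mcidas, Tekt2 and Enkur only 1 wild-type array was higher than wild-type array 4.

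**Figure D2:**
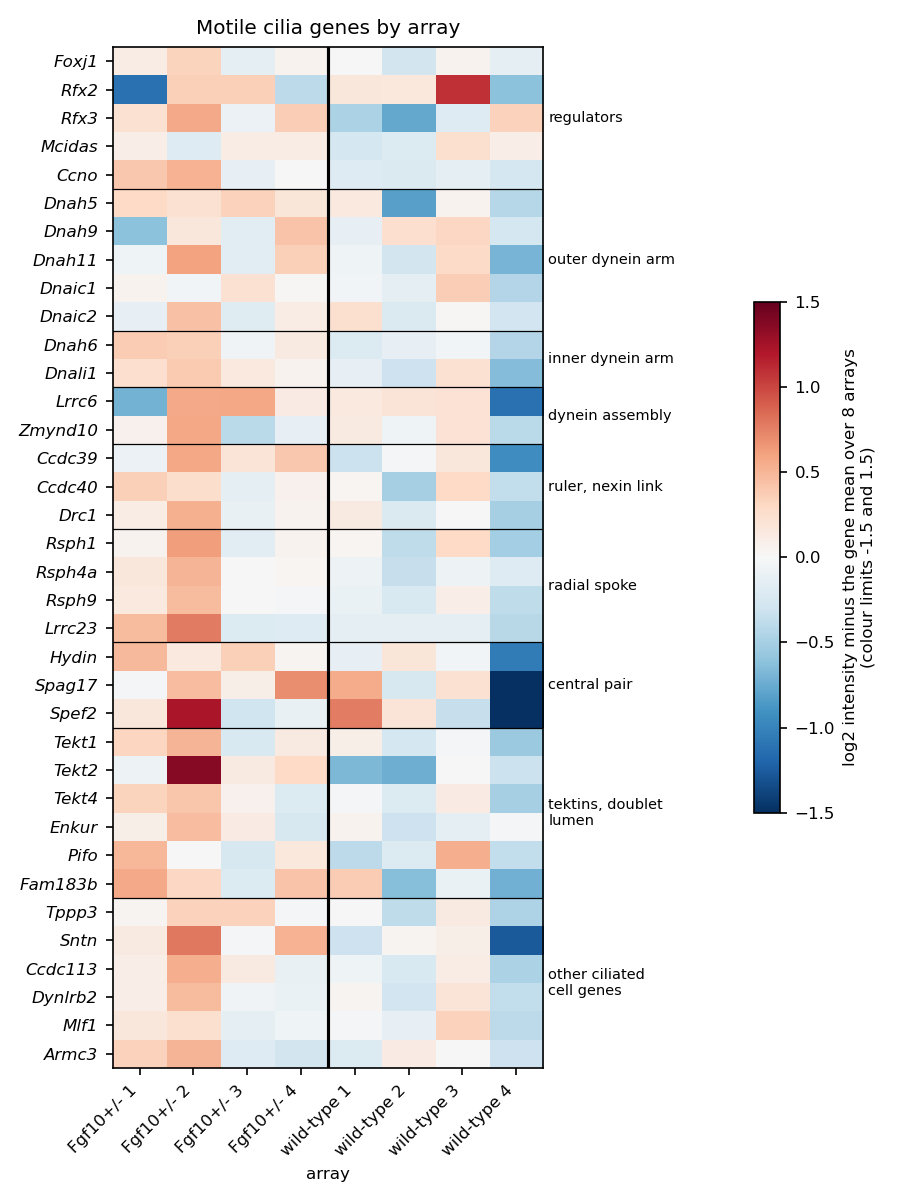
Log2 intensity of each of the 36 motile cilia genes (rows, grouped by role) in each of the 8 arrays (columns), as the difference from the gene's mean over the 8 arrays. Red is above and blue below the mean, with colours capped at the ends of the scale bar; array 2 labelled Fgf10+/- is the highest array for 22 genes and wild-type array 4 the lowest for 25.

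Leaving out both of these arrays was chosen once the values had been seen. It removes the highest array of one group and the lowest of the other for these genes, so a smaller median had to follow, and the values are given only as a description. Members with a positive difference numbered 26 of 36, with a median of 0.12, and 1 had an unadjusted p below 0.05 (Dnah6 at 0.28, SE 0.13, limma adjusted p = 0.487). With only wild-type array 4 removed 31 members were positive, and removing only array 2 labelled Fgf10+/- left 32, with a median of 0.22. The members that turned negative were Zmynd10, Lrrc6 and Mlf1 in the first case and Zmynd10 and Dnaic2 in the second. Rfx3 at 0.65 (SE 0.35), Tekt2 at 0.58 (SE 0.28) and Dnah5 at 0.48 (SE 0.24) had the largest positive differences without both arrays. Foxj1 was then at 0.08 and Ccno at 0.28. Spef2, Zmynd10, Lrrc6, Dnaic2, Mlf1, Armc3, Rsph1 and Dynlrb2 had a negative value in place of a positive one, as low as -0.29 in Spef2. Rfx2 and Dnah9, negative with all arrays, were then at -0.86 (SE 0.44) and -0.26 (SE 0.41).

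**Figure D3:**
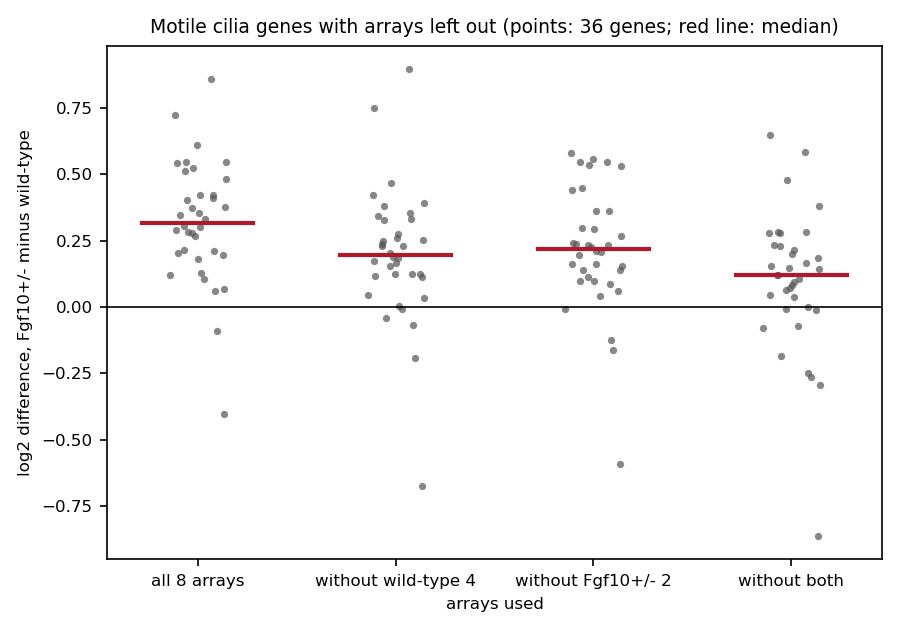
Log2 difference (arrays labelled Fgf10+/- minus wild-type, y axis) of the 36 motile cilia genes with all 8 arrays and with the named arrays left out (x axis). Each point is a gene and the red line is the median, which goes from 0.32 with all arrays to 0.20, 0.22 and 0.12.

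Other cilia genes were set beside the members in 3 lists, of motile cilia structure, of upstream regulators and of transport shared by all cilia. Of 52 tested genes of motile cilia structure 47 had a positive difference, with a median of 0.30, and limma called 0. At an unadjusted p below 0.05 stood 14 of them, all higher (26.9%, against 5.39% of all genes). This count was 6 with wild-type array 4 removed, 9 with wild-type array 2 removed and 4 with array 2 labelled Fgf10+/- removed. With wild-type array 3 removed it was 21, and with wild-type array 1 removed 15. The smallest p were those of Cfap126 at 0.39 (SE 0.13, limma adjusted p = 0.254), Ccdc153 at 0.43 (SE 0.15) and the nexin link gene Ccdc65 at 0.50 (SE 0.17). Wild-type array 4 was the lowest array for 61.5% of them and array 2 labelled Fgf10+/- the highest for 59.6%. Of 13 tested genes that act upstream in centriole production and ciliated cell fate 9 were positive (median 0.12), with 0 called and 0 at an unadjusted p below 0.05. Myb had a value of 0.37 (SE 0.20), the Mcidas relative Gmnc 0.76 (SE 0.46) and Stil, which also serves centriole copying in dividing cells, -0.73 (SE 0.40). Of 31 tested transport genes shared by motile and primary cilia 23 were positive, with a median of 0.14, which was 0.09 without array 3 labelled Fgf10+/-. Of these genes 0 were called and 2 were higher at an unadjusted p below 0.05 (6.45%, near the 5.39% of all genes), or 4 without array 3 labelled Fgf10+/- or without wild-type array 3. These were Dync2li1 at 0.59 (SE 0.19, limma adjusted p = 0.229) and the kinesin gene Kif3a at 0.29 (SE 0.10, limma adjusted p = 0.245), and Bbs1 had a value of 0.33 (SE 0.16). The difference between the lists was not tested.

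Markers of other cells varied between the arrays in different orders. All 10 general epithelial genes had a positive difference (median 0.34), limma called 0, and 3 were at an unadjusted p below 0.05. The median was 0.22 without wild-type array 4, with 9 genes positive, and 8 were positive without array 2 labelled Fgf10+/-, while 5 passed the unadjusted threshold without wild-type array 1. Their mean deviation lay between 0.09 and 0.31 in the arrays labelled Fgf10+/- and between -0.30 and 0.04 in wild-type arrays, lowest in wild-type array 4. The highest was array 3 labelled Fgf10+/-, which was the lowest of that group for the motile cilia genes. The lung epithelial factor Nkx2-1 differed by 0.41 (SE 0.09, limma adjusted p = 0.0691), Cldn7 by 0.54 (SE 0.13, limma adjusted p = 0.0928) and E-cadherin (Cdh1) by 0.33 (SE 0.11). Of 15 club and secretory cell genes, which mark the neighbours of ciliated cells in the airway, 12 were positive (median 0.18), with 0 called by limma and 0 at an unadjusted p below 0.05. This median was 0.10 without array 2 labelled Fgf10+/-, 0.30 without wild-type array 1 and 0.02 without both of the arrays removed above. Their mean deviation ranged from -0.11 to 0.38 in the arrays labelled Fgf10+/- and from -0.21 to 0.13 in wild-type arrays. Like the motile cilia genes, it was highest in array 2 labelled Fgf10+/- and lowest in wild-type array 4. Scgb3a2 differed by 0.23 (SE 0.12), Muc5ac by -0.52 (SE 0.29) and Gabrp by 0.50 (SE 0.30). Of 7 mesothelial genes 6 had a negative difference (median -0.66), with 0 called by limma and 1 at an unadjusted p below 0.05, and with Msln at -0.66 (SE 0.20), Wt1 at -1.19 (SE 0.67) and Upk3b at -1.15 (SE 0.70). The median was -0.20 without wild-type array 4 and -0.01 without both of the arrays removed above. Their mean deviation was 1.56 in wild-type array 4 and -0.72 in array 2 labelled Fgf10+/-, the highest and the lowest of the 8 arrays and the opposite of the order of the motile cilia genes. It lay between -0.45 and 0.44 in the other wild-type arrays. Of 8 heart genes 3 were positive, with 0 called and 0 at an unadjusted p below 0.05. Their median was -0.09, which was 0.17 without wild-type array 4 and -0.25 without wild-type array 1. Their mean deviation was 0.95 in wild-type array 4 and between -0.57 and 0.00 in the other arrays. Nppa weighed most in the value of 0.95, reading 11.25 in that array and between 4.55 and 6.25 in the others. Every listed marker of these 4 lists passed the filter on dim features. The part of epithelial, mesothelial or heart RNA in the motile cilia values was not tested.

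**Figure D4:**
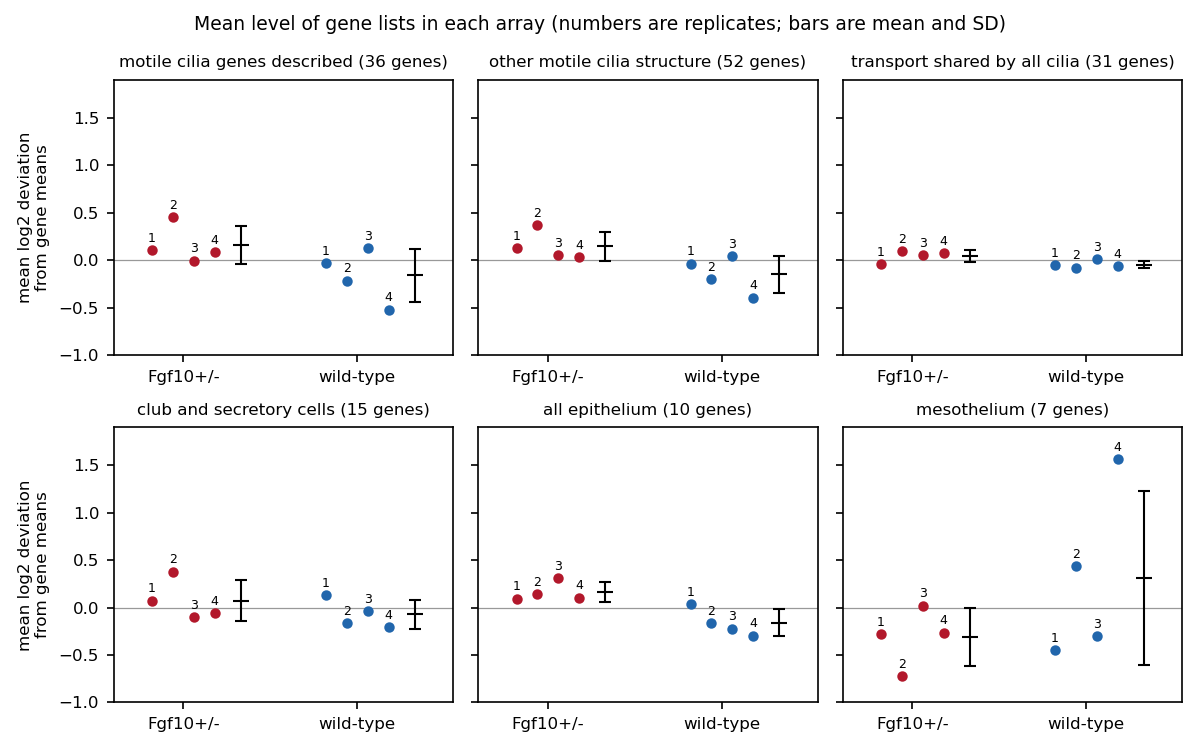
Mean over the genes of a list of the log2 intensity minus the gene's mean over 8 arrays (y axis), for 4 arrays labelled Fgf10+/- (red) and 4 wild-type arrays (blue), numbered by replicate, with the mean and SD of each group in black. Motile cilia and club cell genes are highest in array 2 labelled Fgf10+/- and lowest in wild-type array 4, where mesothelial genes reach 1.56.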

How the data were processed

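Deposited values were log2 intensities for 62976 features of 8 single-dye arrays. Per the submitters' processing notes the authors used limma, with no version or step named; the 8 columns had nearly equal quantiles (medians of 3.69), as quantile-normalized values have, so nothing further was done. How background was corrected is not stated in those notes. Features with any of 301 missing values, or with a mean below the 30th percentile (2.76), were left out. Symbols came from the platform annotation, updated by accession through RefSeq (GRCm38.p6; 29036 features matched).

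Genes were tested with limma 3.58.1 in R 4.3.3 (lmFit, eBayes with a variance trend; two-sided; Benjamini-Hochberg over 17234 genes; called below 0.05), as labelled Fgf10+/- minus wild-type. Intervals are 95% intervals, and the fit was tested on simulated data. Exact permutation tests used the 70 assignments of arrays. The design text of the series names groups of 4 independent samples. Nothing says that the samples of a group came from separate animals, so p-values reflect only their spread, which may be technical. The 4 arrays per group also limit the precision.

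Named members were the 5 regulators, the 2 with the smallest p per structural role, and the 3 largest and 3 smallest differences. From each other list up to 3 genes with the smallest p are named. Members and lists were chosen with earlier results of these data known. Alternatives were other normalizations, filters, feature choices, variance models and thresholds, array weights, a replicate block, and leaving out arrays.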

Additional observations from a re-analysis of the deposited data

Results flagged for a closer look

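In each gene and group of 4 arrays, an array was singled out where its gap to the nearest other array made up most of the group's range (Dixon's criterion at 95%). This held in 3 of 72 member groups, and chance alone singles out about 1 in 20. Mcidas read 11.28 in array 2 labelled Fgf10+/- and between 11.57 and 11.58 in the other arrays of that group. Lrrc6 read 3.46 in wild-type array 4 and between 4.72 and 4.79 in the other wild-type arrays. Lrrc23 read 9.93 in wild-type array 4 and between 10.19 and 10.21 in the others. Among the list means, the heart list stood at -0.23 in array 3 labelled Fgf10+/-, below the other arrays of that group (-0.03 to 0.00).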

How the results depend on the processing

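The number of members called stayed at 0 under every alternative run, with a smallest adjusted p of 0.0608 (Fam183b without wild-type array 1). Members with a positive difference numbered 31 to 35 and their median was 0.20 to 0.42 with each array left out in turn. Members at an unadjusted p below 0.05 numbered 3 to 17 in those runs and 5 without the variance trend. Over all genes, 34 to 173 were called with an array left out (15 to 54 higher, 19 to 129 lower; fewest without wild-type array 2), 1 without the variance trend (0 higher, 1 lower) and 278 at an adjusted p below 0.1 (98 higher, 180 lower). With wild-type array 4 and array 2 labelled Fgf10+/- both removed, chosen after seeing the data, the count was 23 (11 higher, 12 lower) and 1 member was at an unadjusted p below 0.05. The causes of these moves were not tested, beyond the smaller number of arrays. With the mean of each gene's features 32 members were positive, and 6 of the 9 other features of members had a negative difference, at mean levels of 2.41 to 5.94. Deviations of samples with the same number correlated between -0.06 and 0.07, and those of differently numbered samples between -0.07 and 0.08. Whether samples with the same number were handled together cannot be read from these values. With the replicate block 116 genes and 0 members were called. The filter at the 50th percentile left out Dnah9.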

Other observations

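Markers of basal and neuroendocrine cells, of the cartilage around the airway and of the oesophagus gave 0 genes called by limma, and 2 basal and 2 cartilage genes were at an unadjusted p below 0.05. Of 11 tested airway cartilage genes 7 had a positive difference (median 0.23, which was 0.05 without wild-type array 2 and -0.0049 with no filter on dim features), with Matn4 at 0.90 (SE 0.33), Col9a2 at 0.84 (SE 0.31) and Comp at -0.68 (SE 0.42). Among 7 basal cell genes 4 were positive (median 0.13, which was 0.06 without wild-type array 2 and -0.06 with the mean of each gene's features), with Snai2, which fibroblasts also express, at -0.41 (SE 0.10, limma adjusted p = 0.0909), Aqp3 at 0.42 (SE 0.15) and Trp63 at 0.13 (SE 0.14). Among 8 neuroendocrine genes 5 were positive (median 0.17, which was -0.30 without wild-type array 4), with Calca at -0.60 (SE 0.31), Syp at -0.33 (SE 0.19) and Scg5 at 0.55 (SE 0.33). Only 3 of 6 oesophageal genes passed the filter, with Lor at 0.53 (SE 0.37), Dsg3 at -0.54 (SE 0.43) and Krt13 at -0.65 (SE 0.62). Of 10 alveolar type 2 cell genes 9 were positive, with a median of 0.35. This median was 0.27 without array 3 labelled Fgf10+/- and 0.38 without both wild-type array 4 and array 2 labelled Fgf10+/-. limma called 5 of the 10 higher (against 0.226% of all genes), including Slc34a2 at 0.72, Abca3 at 0.48 and Etv5 at 0.41 (limma adjusted p = 0.0203). Of 10 alveolar type 1 cell genes 3 were positive and limma called 0. Their median was -0.06, which was -0.001 without array 4 labelled Fgf10+/- and -0.11 without array 3 of that group. They included Cav1 at -0.41 (SE 0.13), Aqp5 at 0.31 (SE 0.14) and Vegfa at -0.15 (SE 0.08). The count of 5 was 0 without the variance trend, 4 with the mean of each gene's features, 3 without array 1 labelled Fgf10+/- and 2 without array 2 or array 3 of that group or without wild-type array 2 or wild-type array 4.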
